A study of Mus musculus with 8 samples.

Results

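The 10 genes described here encode proteins of the sarcomere that are switched on as the heart tube forms: the cardiac myosin heavy chains *Myh6* and *Myh7*, the myosin light chains *Myl2*, *Myl4* and *Myl7*, cardiac actin *Actc1*, the troponin subunits *Tnnt2*, *Tnni1* and *Tnnc1*, and titin, *Ttn*. They were chosen by name, and every probe whose transcript record maps to one of these symbols was taken, which gave 14 of the 55681 probes on the array. *Ttn* had 4 probes and *Myh6* 2, and each of the other 8 genes had 1. The rule that found the probes used names and no measured value. Total RNA from 8 whole mouse embryos at E8.5 was hybridised to one-colour Agilent 8x60K arrays, with 1 embryo on each array. All 8 embryos and all of their mothers were wild type. The fathers carried either no mutant allele (WT fathers, 4 embryos) or 1 copy of the hypomorphic *Eed* allele Eedl7Rn5-1989SB (HET fathers, 4 embryos), on a C57bl6/129 background, and each group held 2 female and 2 male embryos. *Eed* encodes a core subunit of Polycomb repressive complex 2, which methylates lysine 27 of histone H3, so the comparison asks whether a father with less of this activity had offspring with altered transcription when the offspring did not inherit the mutation.

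In striated muscle, thick filaments of myosin slide along thin filaments of actin, and each myosin head carries an essential and a regulatory light chain. Troponin and tropomyosin lie along the thin filament and open it to myosin when calcium binds, while titin spans the sarcomere from the Z-disc to the M-band and acts as its spring. At the heart tube stage the first heartbeats begin, the embryo holds little differentiated skeletal muscle, and transcripts of these genes serve as markers of cardiomyocytes. RNA of a whole embryo was measured, so a smaller share of cardiomyocytes and less sarcomeric RNA in each of them cannot be told apart.

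Levels are given as log2 of the processed spot intensity relative to the 75th percentile of the same array, so that a value of 0 lies at that percentile. Probes differ in how strongly they bind, and a level was compared only with the level of the same probe in other embryos. All 14 probes passed the filter on dim probes, 13 of them were well above background on all 8 arrays, and none was saturated. Tissue identity was checked on the heart markers *Nkx2-5*, *Gata4*, *Tbx5*, *Tbx20*, *Actn2*, *Nppa* and *Smyd1*, which were well above background on all 8 arrays. The skeletal muscle regulators *Myod1*, *Myf5*, *Myog* and *Myf6* were well above background on 0 arrays. Other genes of the skeletal muscle list were divided. *Myh8*, *Mymk* and *Actn3* were well above background on all 8 arrays and *Myh3* on 5, while *Chrna1* and *Ckm* were on 0. *Xist* lay between 0.78 and 1.15 in the females and between -8.19 and -6.79 in the males, and the Y-linked *Ddx3y* separated the sexes the other way, so all 8 sex labels matched.

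Several arrays stood apart. WT-father embryo 1 and HET-father embryo 3 had 39530 and 38878 probes well above background, where the other 6 arrays had between 29203 and 35486. HET-father embryo 4 had a median local background of 133, where the remaining arrays of the HET-father group had 30 to 32. The WT-father arrays had 50 or 51, so this background differed between the groups as well. Each group was scanned at its own time, with 0 scan times shared, so slide or scan and the genotype of the father cannot be told apart. The embryo codes in the labels share their first part in 3 of the 4 WT-father embryos, and the labels do not say whether this part marks a litter or a father. The number of fathers behind each group is not given in the labels. The main fits and the permutation tests counted every embryo as independent. Embryos that share a father or a litter may be more alike, which would make the SEs, intervals and p-values too small.

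Promoter windows were read to show the sequence elements that lie at these genes. RefSeq's windows (build GRCm38.p6) run from 250 bases before to 50 bases after an annotated start, and 14 of the 32851 windows belong to the 10 genes. The windows of *Actc1*, *Myl7* and *Ttn* are printed because they hold the least common motifs searched, the CArG box (the site of serum response factor) and the MEF2 motif, both known from muscle genes. Capitals mark matches on either strand to the CArG box, the MEF2 motif or the GATA motif (AGATAA or TGATAA), and matches on the strand of the gene to the TATA box (TATAAA). The *Actc1* window is chr2:114052826-114053125, the *Myl7* window chr11:5898733-5899032 and the *Ttn* window chr2:76982498-76982797, all on the minus strand and written 5′ to 3′ along the gene.
Actc1: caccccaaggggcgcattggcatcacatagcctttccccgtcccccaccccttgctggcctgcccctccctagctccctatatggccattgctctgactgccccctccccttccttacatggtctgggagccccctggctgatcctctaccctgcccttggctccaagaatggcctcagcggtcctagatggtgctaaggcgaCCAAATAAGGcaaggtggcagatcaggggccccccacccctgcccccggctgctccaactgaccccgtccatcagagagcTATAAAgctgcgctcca
Myl7: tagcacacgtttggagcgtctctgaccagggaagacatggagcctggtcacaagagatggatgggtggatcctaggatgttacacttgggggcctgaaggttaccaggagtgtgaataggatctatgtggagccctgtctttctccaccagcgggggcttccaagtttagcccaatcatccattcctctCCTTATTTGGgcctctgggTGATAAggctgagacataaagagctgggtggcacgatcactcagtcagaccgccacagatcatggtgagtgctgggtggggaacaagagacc
Ttn: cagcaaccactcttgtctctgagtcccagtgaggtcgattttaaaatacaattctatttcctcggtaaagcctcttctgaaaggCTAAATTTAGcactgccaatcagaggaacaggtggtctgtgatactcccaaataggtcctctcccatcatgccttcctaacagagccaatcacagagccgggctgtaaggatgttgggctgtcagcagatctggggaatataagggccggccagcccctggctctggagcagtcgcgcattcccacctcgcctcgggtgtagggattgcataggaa

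A CArG box was found in 1.63% of all windows and in those of *Actc1*, where it began 47 bases before the start, and *Myl7*, where it began 61 bases before it. The MEF2 motif was found in 0.557% of all windows and in that of *Ttn*, 166 bases before the start. A GATA motif stood in 18.6% of all windows and in those of *Myl2*, *Myl7* and *Tnnt2*, and a TATA box in 8.32% and in those of *Myh6* and *Actc1*. The TATA box match began after the annotated start in both genes, by 1 base in *Myh6* and by 33 bases in *Actc1*. None of these marked motifs overlapped another in the printed windows. The short NKX2-5 motif (AAGTG) was in 7 of the 14 windows, from 6 of the 10 genes, and in 46.4% of all windows. The M-CAT motif (CATTCC) was in 6 of the 14 windows, each from a different gene, against 14.7% of all windows. These are matches of letters and not measured sites. The levels of some of the corresponding factors are given further on.

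No sarcomere probe differed between the embryos of HET and WT fathers. At an adjusted p under 0.01 and at least a 2-fold difference, limma called 0 of the 14 probes and 0 of the 33093 probes tested (0%). At an unadjusted p under 0.05 the counts were 0 of 14 and 4.4% of all probes tested, and every sarcomere probe had overlapping groups, where 3.22% of all probes did not overlap (1.81% higher and 1.41% lower with HET fathers). Of the 10 genes, each by its brightest probe, 7 had a log2 fold change above 0 (58.2% of all genes by their brightest probe, 50.7% of all probes), and the median over the genes was 0.02. Across all probes tested this median was 0.00, and across the brightest probes of 15378 genes it was 0.02. The 95% interval of the fold difference lay within 2-fold in both directions for all 10 genes, and the widest, that of *Myl2*, ran from 0.766-fold to 1.65-fold. In all these comparisons limma's adjusted p was 1 for every sarcomere probe.

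**Figure D1:**
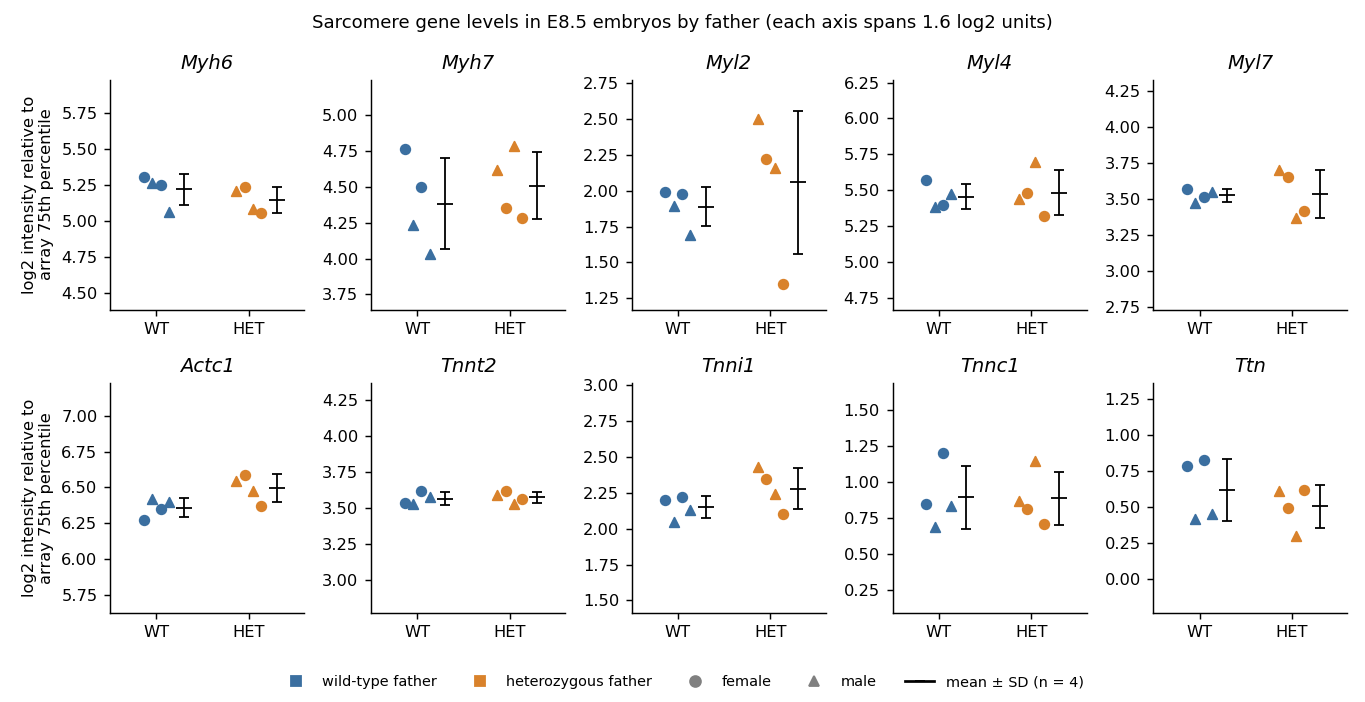
Level of each sarcomere gene (brightest probe) in each embryo, as log2 intensity relative to the 75th percentile of the array, by genotype of the father (WT, HET); circles are females, triangles males, and bars are the mean ± SD of 4 embryos. All axes span the same distance, so the near-constant *Tnnt2* (within 0.09) can be set against *Myl2*, which spanned 1.15, and the groups overlap in every panel.

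*Myh6* encodes the fast alpha heavy chain of cardiac myosin. Its brighter probe (A_55_P2173952) read 5.31, 5.27, 5.25 and 5.06 in WT-father embryos 1 to 4 and 5.21, 5.24, 5.08 and 5.06 in HET-father embryos 1 to 4. The difference of -0.08 ± 0.08 (SE) was within the spread of either group. *Myh7*, the slow beta heavy chain and the main one of the embryonic ventricle, read 4.76, 4.23, 4.50 and 4.03 with WT fathers and 4.62, 4.35, 4.79 and 4.28 with HET fathers. Its difference was 0.13 ± 0.18 (SE), and the ranges of the groups overlapped over most of their length. The heavy chain genes lie side by side on chromosome 14, with 0 protein-coding genes between them. *Myh7* relative to *Myh6* within each embryo was higher by 0.20 in the HET-father group, a difference that an exact permutation test did not separate from the spread (p = 0.314, adjusted over 4 such pairs p = 1, with 0.0286 the smallest p that 4 against 4 embryos allow).

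*Myl2*, the regulatory light chain of the ventricle, varied most of the 10 genes. Its levels were 1.99, 1.89, 1.98 and 1.69 in the WT-father embryos and 2.50, 2.22, 2.16 and 1.35 in the HET-father embryos. Embryos 1, 2 and 3 of HET fathers lay above all WT-father embryos and embryo 4 lay below all of them, which gave a difference of 0.17 ± 0.24 (SE) and a within-group SD of 0.36. Without HET-father embryo 4 the difference was 0.41 ± 0.12 (SE), with an unadjusted p of 0.0144 and limma's adjusted p at 0.768. Without HET-father embryo 1 it was 0.02. Leaving out WT-father embryo 4 gave 0.10, and leaving out each of the other embryos gave 0.11 to 0.20. *Myl7*, the regulatory light chain that later marks the atria, read 3.57, 3.47, 3.52 and 3.55 with WT fathers and 3.70, 3.65, 3.36 and 3.42 with HET fathers. The HET-father values of *Myl7* lay on both sides of the WT-father range, at a mean difference of 0.01 ± 0.09 (SE). *Myl4*, an essential light chain of the atrium and the embryonic heart, read 5.57, 5.38, 5.39 and 5.47 against 5.44, 5.48, 5.70 and 5.32, with a difference of 0.03 ± 0.10 (SE). *Myl2* minus *Myl7* within each embryo was -1.64 with WT fathers and -1.48 with HET fathers (exact permutation p = 0.543, adjusted p = 1), and *Myl4* minus *Myl7* was 1.93 and 1.95 (exact permutation p = 0.971, adjusted p = 1).

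In the thin filament, *Actc1*, the actin of the cardiac sarcomere, had the smallest unadjusted p of the 14 probes. It read 6.27, 6.42, 6.35 and 6.40 in WT-father embryos 1 to 4 and 6.54, 6.59, 6.48 and 6.37 in HET-father embryos 1 to 4. HET-father embryos 1, 2 and 3 were above every WT-father embryo and embryo 4 was within the WT-father range, with a difference of 0.14 ± 0.07 (SE), an unadjusted p of 0.107 and an adjusted p of 1 from limma. The difference was 0.22 after normexp correction with quantile normalization (unadjusted p = 0.0244) and 0.03 when arrays were shifted by their median (unadjusted p = 0.935), both from limma. *Tnni1*, the slow skeletal isoform of the inhibitory troponin subunit and the one used in the embryonic heart, read 2.20, 2.05, 2.22 and 2.13 against 2.43, 2.35, 2.24 and 2.10. The pattern resembled that of *Actc1*, with HET-father embryos 1 to 3 above the WT-father range and embryo 4 inside it, and the difference was 0.13 ± 0.09 (SE). *Tnni3*, the inhibitory subunit that replaces *Tnni1* as the heart matures, differed from *Tnni1* within each embryo by -2.92 ± 0.28 (SD, n = 4) with WT fathers and -2.91 ± 0.35 (SD, n = 4) with HET fathers, a pair of probes whose difference can be compared only between groups.

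*Tnnt2*, the tropomyosin-binding troponin subunit, was the steadiest. Its levels were 3.53, 3.53, 3.62 and 3.58 with WT fathers and 3.59, 3.62, 3.53 and 3.56 with HET fathers, a range of 0.094 over the 8 embryos. The within-group SD of 0.04 was lower than that of all but 0.841% of the probes tested. *Tnnc1*, the calcium-binding subunit of slow and cardiac troponin, read 0.85, 0.69, 1.20 and 0.84 against 0.87, 0.82, 1.15 and 0.71, and in each group embryo 3 lay above all the others. *Tnnt2* and *Tnni1* lie close together on chromosome 1, with 1 protein-coding gene between them.

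*Ttn* was measured by 4 probes, 1 of them bright. The brightest (A_55_P2153021) read 0.79, 0.42, 0.83 and 0.45 with WT fathers and 0.61, 0.49, 0.30 and 0.62 with HET fathers, at a difference of -0.12 ± 0.13 (SE). The other *Ttn* probes and the second *Myh6* probe (A_55_P2140453) were dim, with within-group SDs between 0.41 and 1.06, against 0.04 to 0.36 for the brightest probes of the 10 genes. The dim *Myh6* probe read -2.27, -2.98, -3.21 and -2.55 with WT fathers and -3.44, -3.40, -2.06 and -3.37 with HET fathers. Its highest values were those of WT-father embryo 1 and HET-father embryo 3, the arrays with the most probes above background. The same arrays gave the highest values of the dimmest *Ttn* probe (A_55_P2153031), -3.31 and -2.68, where the other 6 lay between -5.63 and -4.49. The remaining dim *Ttn* probes did not share this order. A_55_P2424042 read -4.23, -4.11, -4.43 and -4.08 with WT fathers and -4.66, -4.92, -3.51 and -4.22 with HET fathers, with only HET-father embryo 3 of these arrays high. A_52_P454295 read -1.64, -2.92, -2.11 and -2.23 against -2.21, -2.75, -2.54 and -2.72, with only WT-father embryo 1 high. The part of these arrays in the dim probes was not tested. Group differences of the dim probes ran from -0.33 to 0.03, and the interval of the dimmest *Ttn* probe ran from 0.341-fold to 3.05-fold, so that a 2-fold difference was not detectable with it.

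**Figure D2:**
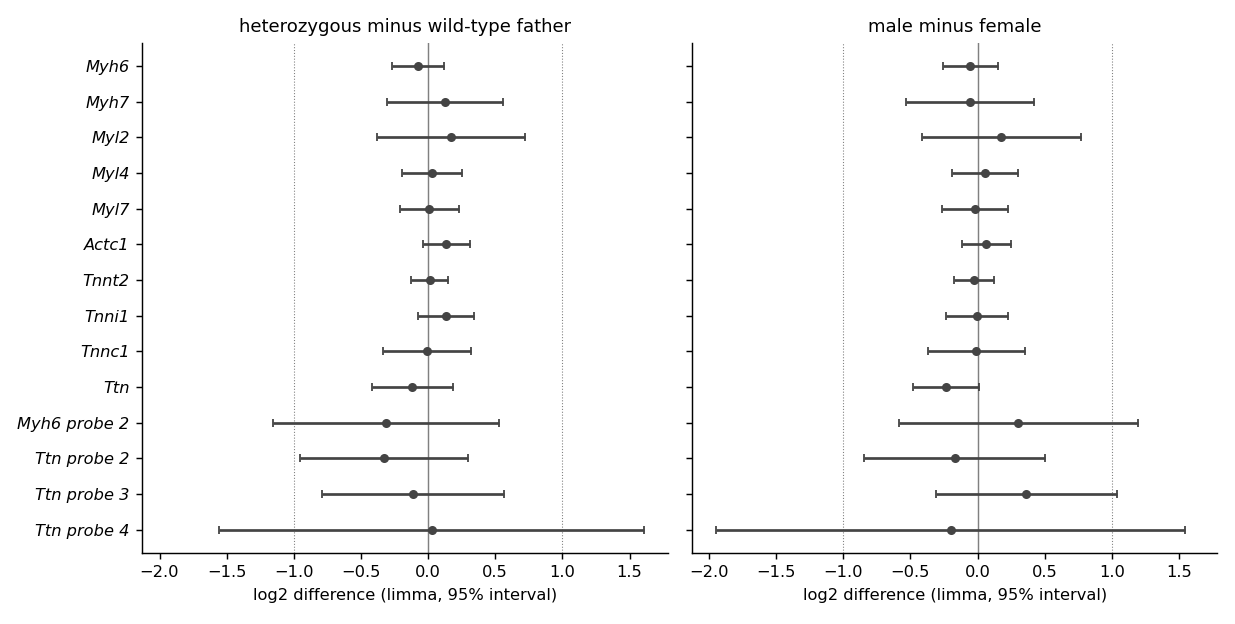
Log2 difference of each of the 14 sarcomere probes between embryos of heterozygous and wild-type fathers (left) and between male and female embryos (right), from limma, with 95% intervals; dotted lines mark 2-fold. The 10 brightest probes stand at the top with intervals inside 2-fold for the father comparison, and the 4 dim probes of *Myh6* and *Ttn* have the widest intervals.

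Sex made no difference that passed the threshold. Limma, with the father's genotype in the fit, called 0 of the 14 sarcomere probes and 11 of all probes tested (0.0332%). At an unadjusted p under 0.05 the counts were 0 of 14 and 3.28%, and the sexes overlapped for all 14 probes, where 2.56% of all probes tested did not overlap. Male minus female differences of the brightest probes ran from -0.24 for *Ttn*, with limma's unadjusted p at 0.0566 and its adjusted p at 1, to 0.18 for *Myl2*, and 3 of the 10 were above 0 (54.5% of all probes). In *Ttn* both WT-father females were above both WT-father males, while among HET-father embryos the females read 0.49 and 0.62 and the males 0.61 and 0.30.

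*Myh7* differed in how the sexes were ordered in the groups. With WT fathers the females read 4.76 and 4.50 and the males 4.23 and 4.03, and with HET fathers the females read 4.35 and 4.28 and the males 4.62 and 4.79. Every female was thus above every male in the first group and below every male in the second. The interaction of father and sex was 0.89 on the log2 scale, at an unadjusted p of 0.00614 and limma's adjusted p of 0.996, and lay between 0.75 and 1.02 when each embryo was left out in turn. When arrays were shifted by their median instead of the 75th percentile it was 0.13. Of the 14 sarcomere probes, 2 had an unadjusted interaction p under 0.05, against 2.23% of all probes tested, and 0 passed the threshold, as did 0% of all probes. The other was a dim *Ttn* probe (A_52_P454295) with an interaction of 1.06, an unadjusted p of 0.0458 and an adjusted p of 0.996 from limma. The sexes stood on opposite sides in the groups for 3 of the 14 probes, those of *Myh7*, *Tnnc1* and this *Ttn* probe, and for 3.43% of all probes. Each sex was represented by 2 embryos in each group.

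The spread of the 10 genes was compared with that of other genes, and the genes with each other. The median of their within-group SDs was 0.13, where it was 0.16 over the brightest probes of all genes tested, and 6 of the 10 genes lay below that median. Bright probes vary less than dim ones, and set against tested probes of like brightness 6 of the 10 lay above the middle, with *Myh7* and *Myl2* above 93.5% of them and *Tnnt2* above 3.13%. Averaged over the genes, each centred on its mean over the 8 embryos, the WT-father embryos 1 to 4 deviated by 0.06, -0.09, 0.06 and -0.11 and the HET-father embryos by 0.12, 0.05, 0.05 and -0.15. The group means were -0.02 ± 0.09 (SD, n = 4) with WT fathers and 0.02 ± 0.12 (SD, n = 4) with HET fathers. HET-father embryo 1 was above the 8-embryo mean for 8 of the 10 genes, while HET-father embryo 4 and WT-father embryo 2 were above it for 1 gene each. Over the 45 pairs of genes the median Pearson r across the 8 embryos was 0.316, and 32 pairs had an r above 0. Without WT-father embryo 1 and HET-father embryo 3 the median was 0.493, with 40 pairs above 0. The highest correlation was that of *Myl2* with *Tnni1* (r = 0.837) and the lowest that of *Actc1* with *Ttn* (r = -0.55). These values are descriptions over 8 arrays that share their scaling.

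**Figure D3:**
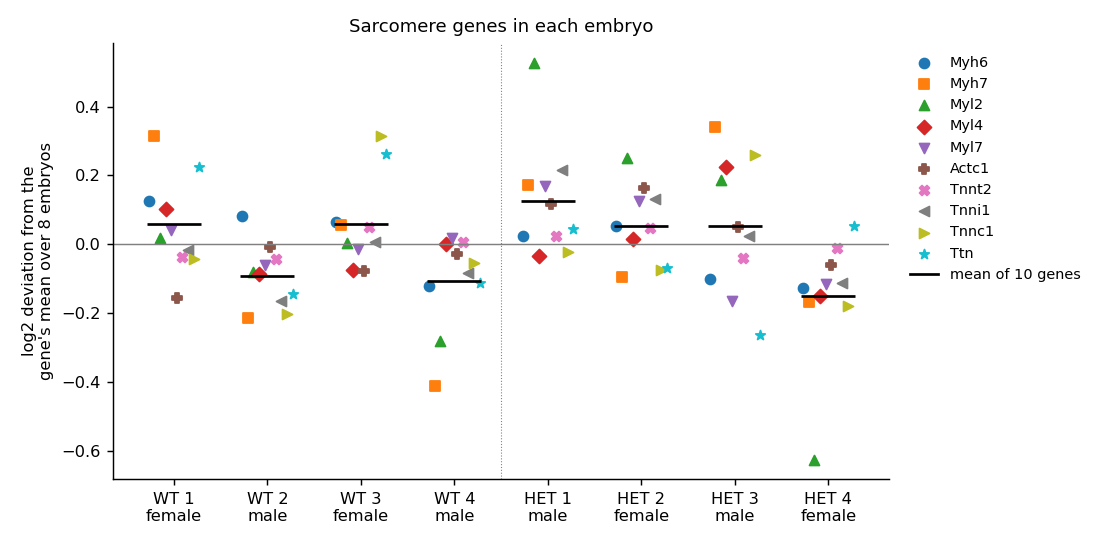
Deviation of each of the 10 genes from its own mean over the 8 embryos (log2), by embryo, with wild-type fathers left and heterozygous fathers right of the dotted line; black bars are the mean of the 10 genes. HET-father embryo 4 has the lowest mean (-0.15) and HET-father embryo 1 the highest (0.12), and *Myl2* sits at the extremes of both.

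The genes whose brightest probe followed the mean of the 10 sarcomere genes most closely were ranked among 15368 genes over the 8 embryos. The first was *Pkp4*, a plakophilin of the armadillo family, with a Pearson r of 0.987 and a range of 0.354 over the embryos. *Ccn1*, a secreted matricellular protein, followed with 0.964 and *Snapc1*, a subunit of the small nuclear RNA activating complex, with 0.956. *Fasn*, which makes fatty acids, had 0.923 and *Hdc*, which makes histamine, 0.922. *Csf2rb*, *Zfp65*, *Plk5*, *Fbln5* and *Llph* lay between 0.92 and 0.914. None of these 10 genes belongs to the sarcomere. Among the other muscle genes the closest were skeletal actin *Acta1* (r = 0.836), the atrial peptide *Nppa* (r = 0.794) and the calcium pump *Atp2a2* (r = 0.783). Heart genes did not all follow the mean. The cardiac transcription factors ran from -0.747 for *Myocd* to 0.385 for *Hopx*. Of the heart markers, *Nkx2-5*, *Gata4*, *Tbx5* and *Tbx20* lay between -0.573 and -0.444, while *Actn2* had 0.708 and *Smyd1* 0.183. The erythroid marker *Alas2* had 0.646.

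The lists of other genes of the sarcomere and of the heart muscle cell held no called gene either. Of the 43 tested genes of thick and thin filaments, Z-disc, calcium handling and cardiac peptides outside the 10, 27 had a log2 fold change above 0 (58.2% of all genes by their brightest probe) and the median was 0.05. Of these genes 2 had an unadjusted p under 0.05 (4.4% of all probes), neither with an adjusted p below 1. The first was *Ankrd1*, a titin-associated ankyrin repeat protein of the sarcomere. It read 1.85, 1.86, 1.93 and 1.87 with WT fathers and 1.65, 1.55, 1.68 and 1.67 with HET fathers, so that all 4 HET-father embryos lay below all 4 WT-father embryos, a pattern found in 1.41% of all probes tested. Its difference was -0.24 ± 0.06 (SE), and it stayed between -0.34 and -0.21 under all alternatives tried. The value of -0.34 came with arrays shifted by their median, where limma's unadjusted p was 0.343. With the replicate number as a block limma's unadjusted p was 0.0379. The second was *Myl1*, an essential light chain best known from fast skeletal muscle, which read 1.03, 0.99, 0.68 and 0.43 against -0.20, 0.65, 0.44 and -0.02, a difference of -0.56 ± 0.23 (SE). With all tested *Myl1* probes averaged this difference was -0.03, so its probes did not agree. With a random block for the embryo code the unadjusted p from limma was 0.0203 for *Ankrd1* and 0.0665 for *Myl1*.

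By list, the 9 other thick filament and M-band genes had a median of 0.08 and the 12 tested of 13 other thin filament genes 0.05. The 15 tested of 16 Z-disc and assembly genes had 0.01. Of 10 genes of calcium handling and conduction, 5 were tested, and *Pln*, *Sln* and *Casq2*, which regulate the calcium store of the mature heart cell, were well above background on 0 arrays. The calcium channel gene *Cacna1c* was well above background on 3 arrays and the pacemaker channel gene *Hcn4* on 1, and neither was tested. Of the other lists, *Lmod2* was on 2 arrays and *Myoz2* on 0. The 15 cardiac transcription factors had a median of 0.06 with 12 above 0, and 0 of them had an unadjusted p under 0.05. Among the factors whose motifs are named above, *Srf* had 0.12 ± 0.07 (SE), *Mef2c* 0.18 ± 0.19 (SE) and *Nkx2-5* -0.01 ± 0.12 (SE). *Gata4*, *Gata5* and *Gata6* had 0.06 ± 0.13 (SE), -0.01 ± 0.10 (SE) and 0.13 ± 0.14 (SE). The 11 non-muscle myosin, actin and tropomyosin genes had a median of 0.03 and a median within-group SD of 0.09.

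**Figure D4:**
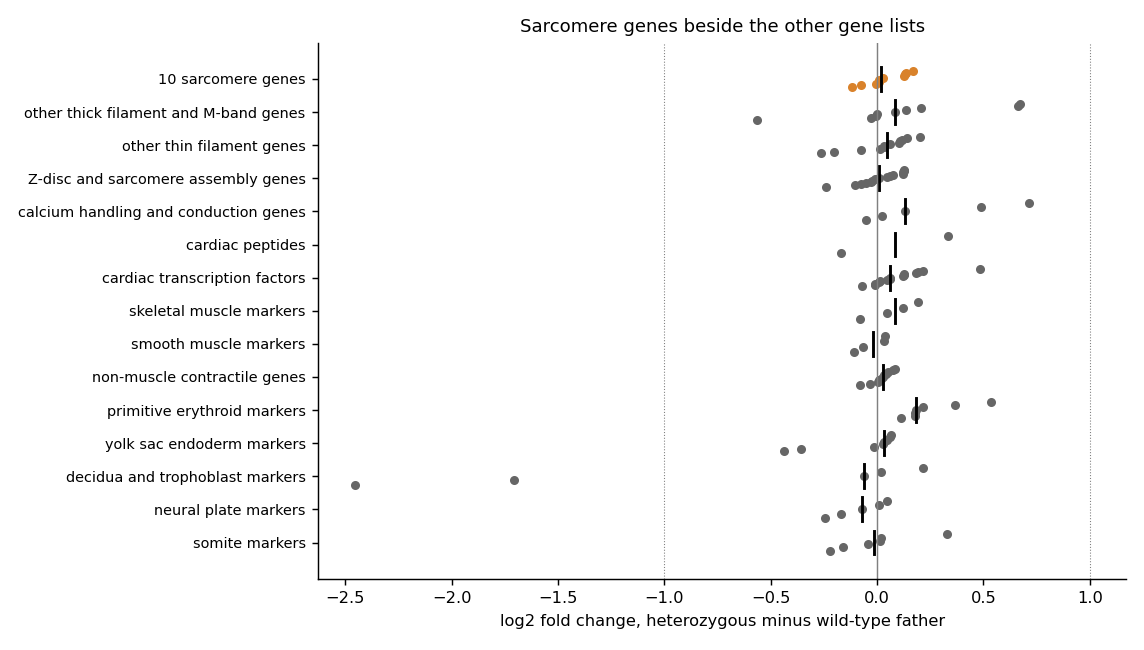
Log2 fold change (heterozygous minus wild-type fathers) of each tested gene, by list, with the 10 sarcomere genes in orange; black bars are medians and dotted lines mark 2-fold. The 10 sarcomere genes lie between -0.12 and 0.17, and the points beyond 2-fold are *Prl8a2* (-2.45) and *Cyp11a1* (-1.71, or -0.63 after normexp correction with quantile normalization) of the decidua and trophoblast list.

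HET-father embryo 4 was the lowest embryo for several heart genes, which were picked out after their values were seen. *Nppa*, which encodes the natriuretic peptide of the early working myocardium, read 0.99, 0.95, 0.49 and 0.04 with WT fathers and 1.50, 1.45, 1.54 and -0.68 with HET fathers. Embryos 1 to 3 of HET fathers were above every WT-father embryo and embryo 4 was below all of them. The difference was 0.33 ± 0.53 (SE) with all embryos, and without HET-father embryo 4 it was 0.88 ± 0.24 (SE), with an unadjusted p of 0.00942 and an adjusted p of 0.725 from limma. Without HET-father embryo 1, 2 or 3 it was 0.15, 0.17 and 0.14, and without WT-father embryo 4 it was 0.14. *Nppb*, the related peptide, read -0.94, -1.13, -1.71 and -1.97 against -1.50, -1.19, -1.10 and -2.63, again with HET-father embryo 4 lowest. The Z-disc genes *Actn2* and *Csrp3* deviated by -0.55 and -0.50 from their 8-embryo means in that embryo, and *Myl2* by -0.63. Of the 43 heart and sarcomere genes outside the 10, 16 were lowest in HET-father embryo 4, an embryo that was lowest for 12.5% of all genes tested, and 3 of the 10 sarcomere genes were. Of the cardiac transcription factors 1 of 15 was lowest there, and of the neural plate markers 3 of 5, so low values in this embryo were not confined to heart genes. HET-father embryo 3 was highest for 21 of the 43 genes and for 29.4% of all genes tested. The local background of the array of HET-father embryo 4, given above, was the highest of the 8, and its part in these values was not tested.

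**Figure D5:**
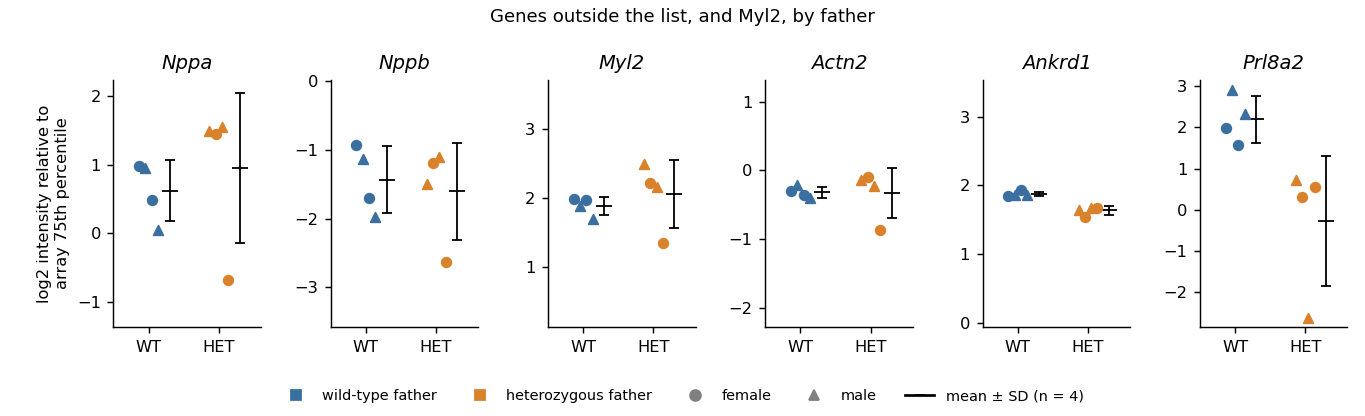
Levels of *Nppa*, *Nppb*, *Myl2*, *Actn2*, *Ankrd1* and *Prl8a2* in each embryo, as log2 intensity relative to the 75th percentile of the array (circles female, triangles male, bars mean ± SD of 4); the first 5 panels span the same distance and *Prl8a2* a larger one. HET-father embryo 4 is the low point of the first 4 panels, and the groups do not overlap for *Ankrd1* and *Prl8a2*.

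Markers of other tissues were compared because whole embryos can carry different amounts of membranes and blood. Summed over the brightest probes, in units of the 75th percentile of the array, the 10 sarcomere genes reached 213 to 227 with WT fathers and 208 to 238 with HET fathers. The 7 primitive erythroid markers ranged from 512 to 1220 and from 831 to 1050, and all 7 were lowest in WT-father embryo 4. The 8 yolk sac endoderm markers ranged from 477 to 674 and from 581 to 614, with 6 of 8 lowest in that same embryo. Of the 5 tested decidua and trophoblast markers, 2 had an unadjusted p under 0.05, against 4.4% of all probes tested. The median over the 5 was -0.06. The remaining *Hand1*, *Prl3b1* and *Dcn* differed by 0.21 ± 0.16, 0.02 ± 0.10 and -0.06 ± 0.22 (SE). *Prl8a2*, a prolactin family hormone of the decidua, read 1.99, 2.92, 1.56 and 2.31 with WT fathers and 0.72, 0.31, -2.61 and 0.54 with HET fathers. All HET-father embryos were below all WT-father embryos, as for 1.41% of all probes, at a difference of -2.45 ± 0.75 (SE) and an adjusted p of 1 from limma. *Cyp11a1*, the first enzyme of steroid synthesis, differed by -1.71 ± 0.65 (SE), was well above background on 6 of the arrays, and differed by -0.63 after normexp background correction with quantile normalization, by -1.14 without HET-father embryo 3 and by -0.99 without that embryo and WT-father embryo 1. *Tpbpa*, which defines the spongiotrophoblast, was well above background on 0 arrays. The part of these tissues in the sarcomere values was not tested. Among the 6 somite markers *Pax3* had an unadjusted p of 0.0316 with a difference of -0.22 ± 0.08 (SE) and an adjusted p of 1 (unadjusted p = 0.0967 from limma with a random block for the embryo code, where that of *Cyp11a1* was 0.0639), while the 5 tested neural plate markers had a median of -0.07 and 0 with an unadjusted p under 0.05. Smooth muscle markers, whose *Myh11* was well above background on 1 array, had a median of -0.02 over 4 tested genes, and the 4 tested skeletal muscle genes 0.09.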

How the data were processed

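RNA of 8 E8.5 embryos was labelled with Cy3 and hybridised to Agilent 8x60K arrays, and the authors extracted spot intensities with Feature Extraction 11.0.1.1. The deposited scanner intensity values are background-subtracted and not scaled between arrays. A deposited table of the whole series repeats them within 0.497% (column medians 57.2 to 117, 0 columns unused) and served as an alternative.

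From each array's log2 processed intensity its 75th percentile over all non-control spots was subtracted. Spots marked as outliers were then left out, and replicate spots were averaged per probe. Tested probes had to be above the lowest 20% by mean level and well above background on at least 4 of 8 arrays, which left 33093 of 55681. Of 28685 probes with a RefSeq record, 27235 were named through a table of assembly GRCm38.p6. Groups were compared with limma 3.58.1 (R 4.3.3, data.table version 1.17.8) over all probes tested, with Benjamini-Hochberg adjustment, at an adjusted p under 0.01 and 2-fold. The fits had only the father's genotype, or also sex, or its interaction. The scripts were tested on simulated data. The number of arrays limits the precision. Figures and promoter matches were made in Python 3.11.15 with pandas 2.3.3, numpy 2.4.6 and matplotlib 3.10.9.

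All probes of the 10 genes were named, with the brightest tested probe standing for a gene, together with list genes at an unadjusted p under 0.05 or with groups that did not overlap, the 10 genes most like the mean of the 10, and genes that check tissue identity. Other list genes named, including *Nppa*, *Nppb*, *Actn2*, *Csrp3*, *Tnni3*, *Acta1*, *Atp2a2*, *Srf*, *Mef2c*, *Gata5* and *Gata6*, and the 4 within-embryo pairs, were chosen after their values were seen. The members and lists were chosen with earlier results of these data known. Alternatives covered the background correction, scaling, dim-probe filter, probe averaging, source table, sex, replicate block, embryo code, array weights, threshold and each embryo left out.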

Additional observations from a re-analysis of the deposited data

Results flagged for a closer look

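In 4 of 60 groups of 4 embryos, 1 embryo lay far from the rest. Chance gives about 3 where genes are picked without regard to their values. Some of these genes were named after their values were seen, so that number cannot be set against the count. Distance was measured as the gap to the nearest embryo over the whole range of the group. The share was 0.949 for the dim *Myh6* probe (A_55_P2140453), where HET-father embryo 3 was high. It was 0.957 for *Nppa* and 0.834 for *Actn2*, where HET-father embryo 4 was low, and 0.876 for *Prl8a2*, where HET-father embryo 3 was low.

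The difference between the sexes ran in opposite directions in the groups for *Myh7* (interaction of 0.885), *Tnnc1* (0.51) and a dim *Ttn* probe (1.06), with every male on one side of every female in each group. Limma's adjusted p of these interactions was 0.996, with 2 embryos of each sex in each group.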

How the results depend on the processing

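Under the 21 alternatives, 0 sarcomere probes were called for father or for sex, and under 17 of them for the interaction. The median log2 fold change of the 10 genes was 0.0198, lay between 0.00148 and 0.0673 with 1 embryo left out, and was -0.0862 when arrays were shifted by their median, which moved the median of all probes to -0.103 as well. The median of the 10 genes was above that of all probes there. In the main fit it was 0.0198, against 0.0237 for the brightest probes of all genes tested. The sign of *Myl7* changed under 7 of 20 alternatives, those of *Myl4*, *Tnnc1* and *Tnnt2* under 4 each and that of *Ttn* under 1, and those of *Myh6*, *Myh7*, *Myl2*, *Actc1* and *Tnni1* under 0. With the replicate number as a block, 0 sarcomere probes were called, the median stayed at 0.0198, and 874 probes had an unadjusted p under 0.05 instead of 1455. Same-numbered embryos did not deviate together (correlations from -0.587 to -0.0452). No pairing by number was seen, though these values cannot settle whether the numbers pair the embryos. Over all alternatives that count of probes ran from 479 with the median shift to 5360 with no filter on dim probes, and without HET-father embryo 3 it was 3095. With a random block for the embryo code (correlation within a code 0.541) it was 680. At most 1 probe of any gene was called, without WT-father embryo 1, without HET-father embryo 4, or with WT-father embryo 1 and HET-father embryo 3 both left out. The cause of these shifts was not tested. The dim *Myh6* and *Ttn* probes had larger within-group SDs than the brightest probes, and the part of signal over background in this was not tested.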
